A study of Mus musculus with 32 samples.

Results

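The experiment is the loading of mouse primary white adipocytes with cholesterol after both Nfe2l1 and Atf3 had been silenced. Its members are the 8 libraries that received siNfe2l1+siAtf3, of 32 libraries in the series, and they were chosen by their labels alone. Of these, 4 came from cells given 400 µM cholesterol, which the study's design text describes as bound to methyl-β-cyclodextrin and applied for 6 h, and 4 from cells given the control treatment. Primary white adipocytes are fat-storing cells, here grown from subcutaneous adipose tissue of mice, and poly(A) RNA was sequenced. The other 24 libraries, 8 for each siRNA, carried a scramble siRNA, siNfe2l1 alone or siAtf3 alone, with 4 control and 4 cholesterol libraries each. They enter below only where the response of the double-silenced cells is set against another response. The labels give neither strain, sex nor age of the mice, and no label tells if cyclodextrin was also part of the control treatment, so an effect of the carrier and one of cholesterol cannot be told apart. A group's 4 libraries are labelled as biological replicates, with no word on separate mice or cultures, so p-values measure the spread between these libraries only. Small interfering RNAs lower an mRNA in part, and the cells are therefore not null for either gene.

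NFE2L1, also called NRF1 or TCF11, is a transcription factor anchored in the endoplasmic reticulum that raises proteasome genes when proteasome activity is short, and it has been described as a sensor of membrane cholesterol. ATF3 is a transcription factor of the ATF/CREB family that is induced by many stresses, including the integrated stress response, in which phosphorylation of eIF2α favours translation of ATF4. Excess cholesterol in the endoplasmic reticulum keeps SREBP2, the activator of sterol synthesis genes, from being processed, while oxysterols activate the nuclear receptors LXRα and LXRβ, which raise genes of sterol efflux. Adipocytes hold a large store of free cholesterol, much of it at the surface of lipid droplets.

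Total counts of the 8 libraries ran from 24538578 to 33828418, and the highest belonged to control library 4, while the other 7 held at most 28391112. Genes well below 1 CPM (a gene's reads scaled to library size, with library sizes adjusted by TMM) therefore rest on few counts. In a principal component analysis of the 1000 most variable genes over all 32 libraries, the first component held 80.2% of the variance. The control libraries of the double-silenced cells lay between -33.9 and -32.6 on it and their cholesterol libraries between 28.6 and 33.7. The summed level of 21 adipocyte markers in the control libraries was 21300 to 21900 CPM. Among them were Fabp4 at 5220 ± 319, Plin1 at 1750 ± 40.6 and Adipoq at 817 ± 28.3 CPM (mean ± SD, n = 4). Other markers of that list, such as Lep and Pck1, were far lower, as given below. Scd1, of the fatty acid synthesis list, stood at 20500 ± 327 CPM. Markers of other cell types were also detected, though bulk RNA does not tell which cells made them. In the control libraries the summed level of 14 fibroblast and precursor markers was 25600 to 26900 CPM, that of 14 macrophage markers 508 to 558 CPM, that of 12 endothelial markers 725 to 750 CPM, and none of these markers was at 0 on average.

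The targeted genes were measured in every library of the experiment. Nfe2l1 (ENSMUSG00000038615, chromosome 11, 96708240 to 96720794, minus strand; all gene positions are GRCm39, as deposited) stood at 112, 115, 116 and 113 CPM in the control libraries 1 to 4. In cholesterol it stood at 159.9, 154, 163 and 151 CPM. No cholesterol library reached down to a control library, and the rise was 1.38-fold (log2 fold change 0.46 ± 0.07, SE; adjusted p = 3.59e-07; edgeR quasi-likelihood test, Benjamini-Hochberg over all genes). The scramble libraries held 479 to 493 CPM in control treatment and 767 to 872 CPM in cholesterol, so every double-silenced library lay below every scramble library of its treatment. Atf3 (ENSMUSG00000026628, chromosome 1, 190902493 to 190950236, minus strand) stood at 16.3, 13.6, 14.8 and 16.6 CPM in control and at 54.2, 46.98, 51.6 and 50.5 CPM in cholesterol. This was a 3.3-fold rise (1.72 ± 0.29, adjusted p = 1.42e-05) without overlap, against scramble values of 24.01 to 29.1 CPM in control and 281 to 561 CPM in cholesterol. Both targeted mRNAs thus stayed responsive to cholesterol while at lower levels than with scramble siRNA.

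Cholesterol changed most of the genes tested in the double-silenced adipocytes. Of 16984 genes tested, 5054 rose and 4910 fell at a false discovery rate of 0.05, which is 58.7% of all genes (29.8% higher and 28.9% lower). Changes of more than 2-fold were fewer, at 838 genes higher and 1563 lower, so that the large changes were mostly falls. Over all genes tested, called or not, the 4 cholesterol libraries lay wholly above the 4 control libraries in 4927 and wholly below them in 4645. The median log2 fold change over all genes was 0.00. With scaling by library totals alone in place of TMM it was -0.07, and 41.7% of the calls were then higher, against 50.7%.

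Ranked over protein-coding genes whose groups did not overlap and whose mean log2 CPM reached 2, the 4 largest rises were those of 2 chemokines and 2 heat shock proteins. Values after ± are SE for log2 fold changes and SD for CPM. Cxcl2 (ENSMUSG00000058427, chromosome 5, 91051730 to 91053797, plus strand), a chemokine that draws neutrophils, went from 0.558, 0.485, 0.269 and 0.586 CPM in control to 43.1, 36.8, 72.2 and 35.9 CPM in cholesterol. By the choice of the set all 4 cholesterol libraries lay above all controls, and the fold was 96.3 (6.59 ± 0.43, adjusted p = 8.53e-13). Its neighbour Cxcl1 (ENSMUSG00000029380, chromosome 5, 91039100 to 91040974, plus strand), of the same function, went from 4.24, 4.11, 4.07 and 3.82 to 202, 160, 265 and 166 CPM, or 48.9-fold (5.61 ± 0.33). In both chemokines cholesterol library 3 was the highest. Hspa1a (ENSMUSG00000091971, chromosome 17, 35188166 to 35191132, minus strand) and Hspa1b (ENSMUSG00000090877, chromosome 17, 35175412 to 35178214, minus strand) encode the inducible HSP70, a chaperone of unfolded proteins. Hspa1a went from 4.83, 3.96, 4.99 and 5.44 to 439.7, 360.4, 454 and 425 CPM, or 86.8-fold (6.44 ± 0.23, adjusted p = 4.73e-18), and Hspa1b from 18.1, 18.9, 18.7 and 18.6 to 889, 724, 917 and 883 CPM, or 45.9-fold (5.52 ± 0.19). The 2 genes are near-identical copies. How reads with several alignments were counted is not given in the sources used here, so the split of reads between the pair is uncertain. Gdf15 (ENSMUSG00000038508, chromosome 8, 71082043 to 71085106, minus strand), a stress hormone that lowers food intake, went from 16.6, 16.2, 15.6 and 15.8 to 358, 261, 349 and 313 CPM, or 20-fold (4.32 ± 0.25).

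The other 5 of the 10 largest rises in that set were those of an enzyme, a ligand, transcription factors and a gene without an assigned name. Ptgs2 (ENSMUSG00000032487, chromosome 1, 149975782 to 149983978, plus strand), the inducible cyclooxygenase, went from 15.5, 15.9, 15.1 and 12.6 to 224, 198, 262 and 200.2 CPM, 15-fold higher (3.91 ± 0.13, adjusted p = 8.16e-20). Klf2, a zinc finger factor, rose from 8.32 ± 1.07 to 124 ± 8.98 CPM (3.9 ± 0.22) and Egr1, an immediate early zinc finger factor, from 27.8 ± 0.456 to 340 ± 41.4 CPM (3.61 ± 0.12). Ereg, the EGF family ligand epiregulin, rose from 1.77 ± 0.388 to 20.9 ± 1.74 CPM (3.55 ± 0.12), and Gm13889 from 4.74 ± 0.999 to 76.7 ± 9.23 CPM (4.03 ± 0.29). By the choice of the set, the lowest cholesterol library exceeded the highest control library in each of these 5 genes.

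The 10 deepest falls in the same set included genes typical of precursor and vessel cells, and in bulk RNA fewer cells of a type and less RNA per cell cannot be told apart. Sfrp2 (ENSMUSG00000027996, chromosome 3, 83673628 to 83681623, plus strand), a secreted WNT binder typical of adipose precursors and fibroblasts, went from 69.8, 61.8, 62.7 and 51.9 CPM in control to 1.58, 2.62, 2.52 and 2.99 CPM in cholesterol. It was 25.2-fold lower (-4.65 ± 0.13, adjusted p = 2.14e-23), and its relative Sfrp1 was 10.4-fold lower (26.3 ± 2.33 to 2.51 ± 0.388 CPM). Bmf (ENSMUSG00000040093, chromosome 2, 118359238 to 118380168, minus strand), which encodes a pro-apoptotic BH3-only protein, went from 36.5, 34.99, 37.1 and 38.2 to 1.74, 2.51, 1.36 and 1.96 CPM, 19.4-fold lower (-4.28 ± 0.11, adjusted p = 5.12e-27). Clec14a, an endothelial lectin, fell from 24.9 ± 2.4 to 1.4 ± 0.376 CPM (-4.14 ± 0.19), and Btnl9, of the butyrophilin family, from 29 ± 1.79 to 2.88 ± 0.721 CPM (-3.33 ± 0.13). Dio3, the deiodinase that inactivates thyroid hormone, fell from 83.3 ± 4.61 to 7.27 ± 1.43 CPM (-3.52 ± 0.1). Gdf10, a TGF-β family ligand, fell by 15.7-fold, Spon2, a matrix protein, by 9.44-fold, Enpp1, which makes pyrophosphate and binds the insulin receptor, by 9.04-fold, and the homeobox gene Prrx2 by 9.01-fold. The 10 were chosen among genes without overlap, so no cholesterol library overlapped a control library in any of them.

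**Figure D1:**
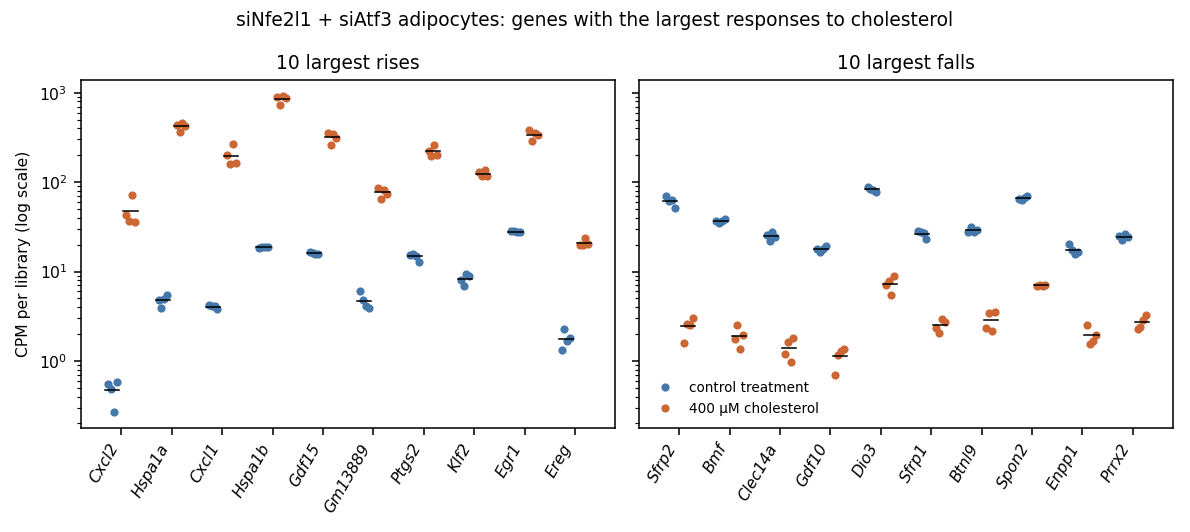
CPM in each library (log axis) for the 10 largest rises and 10 largest falls among protein-coding genes of average log2 CPM 2 or more without overlap, in double-silenced adipocytes; blue points are the 4 control libraries, orange points the 4 cholesterol libraries and bars their means. In all 20 genes, which were chosen among genes without overlap, the 2 groups stand apart, and Cxcl2 starts from the lowest control level, below 1 CPM.

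Promoters of genes from 4 of the responding groups are printed here, since the groups are known for elements that lie close to the start site. The windows run from 150 bases before to 50 bases after the start and are RefSeq sequences on GRCm38.p6, matched by gene symbol. That build differs from the GRCm39 of the counts, and no coordinate was converted. Hspa1a (chr17:34972107-34972306, minus strand) and Hspa1b (chr17:34959189-34959388, minus strand) are shown because they rose together. Over these 200 bases they were 99% identical, and capitals mark the 2 bases that differ:
Hspa1a: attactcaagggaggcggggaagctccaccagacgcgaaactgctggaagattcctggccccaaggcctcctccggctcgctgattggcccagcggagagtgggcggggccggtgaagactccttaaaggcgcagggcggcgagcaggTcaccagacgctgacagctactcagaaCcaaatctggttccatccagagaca
Hspa1b: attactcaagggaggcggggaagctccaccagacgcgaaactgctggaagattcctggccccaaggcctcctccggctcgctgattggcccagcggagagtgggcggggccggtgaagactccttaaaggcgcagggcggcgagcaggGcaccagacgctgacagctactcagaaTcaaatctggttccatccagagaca
For the other windows capitals mark a motif, read on both strands. Hspe1 (chr1:55087998-55088197, plus strand) encodes the mitochondrial chaperonin cofactor and holds 2 overlapping matches to the heat shock element GAANNTTCNNGAA, starting 89 bases before the start site:
Hspe1: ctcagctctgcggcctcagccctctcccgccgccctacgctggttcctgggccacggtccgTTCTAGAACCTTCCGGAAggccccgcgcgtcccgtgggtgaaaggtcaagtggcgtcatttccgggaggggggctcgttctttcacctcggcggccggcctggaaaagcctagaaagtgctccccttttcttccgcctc
Cxcl1 (chr5:90891095-90891294, plus strand) and Cxcl2 (chr5:90903749-90903948, plus strand), the chemokines with the steepest rises, each hold 1 match to GGAATTTCC, a core of the NF-κB site, 70 and 96 bases before the start:
Cxcl1: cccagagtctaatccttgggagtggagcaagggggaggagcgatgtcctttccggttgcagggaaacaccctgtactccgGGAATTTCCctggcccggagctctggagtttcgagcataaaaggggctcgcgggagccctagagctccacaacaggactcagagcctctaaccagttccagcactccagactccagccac
Cxcl2: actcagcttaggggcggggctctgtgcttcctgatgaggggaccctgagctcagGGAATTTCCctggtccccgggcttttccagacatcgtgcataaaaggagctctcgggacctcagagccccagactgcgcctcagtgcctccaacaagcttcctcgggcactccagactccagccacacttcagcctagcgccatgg
Slc7a11 (chr3:50443564-50443763, minus strand), the cystine transporter gene, holds 2 matches to TGATGNAA, a core of the amino acid response element bound by ATF4, 1 on each strand, from 66 bases before the start:
Slc7a11: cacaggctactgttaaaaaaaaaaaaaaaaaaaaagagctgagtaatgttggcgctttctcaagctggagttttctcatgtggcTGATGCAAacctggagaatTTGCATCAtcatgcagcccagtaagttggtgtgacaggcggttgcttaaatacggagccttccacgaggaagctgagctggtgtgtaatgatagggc
Hmgcs1 (chr13:119690201-119690400, plus strand), a mevalonate pathway gene that fell, holds 1 match to TCACCCCA, a core of the sterol regulatory element, 137 bases before the start:
Hmgcs1: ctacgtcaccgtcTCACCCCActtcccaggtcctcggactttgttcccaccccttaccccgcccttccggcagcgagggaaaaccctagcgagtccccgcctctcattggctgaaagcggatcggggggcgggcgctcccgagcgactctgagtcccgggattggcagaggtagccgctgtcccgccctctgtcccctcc
Of all 32851 windows of 300 bases, 0.603% held GAANNTTCNNGAA, 0.317% GGAATTTCC, 3.97% TGATGNAA and 1.56% TCACCCCA. By gene, 3 of 12 matched heat shock genes (Hsph1, Hspd1 and Hspe1), 6 of 22 cytokine and NF-κB target genes (Cxcl1, Cxcl2, Cxcl10, Icam1, Nfkbia and Tnfaip3), 7 of 21 integrated stress response genes and 2 of 17 sterol genes (Hmgcs1 and Srebf2) held the motif of their group, against 0.662%, 0.381%, 4.51% and 1.77% of 27025 genes. The windows of Hspd1 and Hspe1 overlap on opposite strands of chromosome 1, so their matches lie in the same bases and are not separate cases. As the groups are known for these elements, a share above that of all genes says nothing about the response here. A match describes letters in a window and was not tested as a binding site.

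Genes of sterol synthesis and uptake fell. Of 25 tested, 21 were lower and 0 higher, with a median log2 fold change of -0.64 against 0.00 over all genes. This and every list count of the response below stands against 29.8% higher and 28.9% lower over all genes. Sqle, squalene epoxidase, went from 114, 114, 119 and 115 to 50.99, 47.8, 48 and 45.8 CPM without overlap (-1.26 ± 0.05, adjusted p = 3.71e-21). Stard4, a carrier of cholesterol in the cytosol, fell from 51.7 ± 1.23 to 16.7 ± 1.12 CPM (-1.63 ± 0.07) and the sterol oxidase gene Msmo1 from 65.3 ± 2.87 to 29.6 ± 1.19 CPM (-1.14 ± 0.07).

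The size of the fall differed along the pathway. Hmgcs1, an early enzyme of the mevalonate pathway, fell from 362 ± 5.46 to 237 ± 7.89 CPM (-0.61 ± 0.06) and Insig1, which retains the SREBP escort, from 300 ± 7.64 to 155 ± 12.1 CPM (-0.95 ± 0.11). Srebf2, the gene of SREBP2 itself, fell from 171 ± 6.81 to 103 ± 6.72 CPM (-0.73 ± 0.05). The 4 members that did not pass the test were Pmvk (0.04 ± 0.07), Tm7sf2 (-0.08 ± 0.07), Hsd17b7 (-0.1 ± 0.06) and Lss (-0.12 ± 0.06), of which Lss, lanosterol synthase, had an adjusted p of 0.0589. Fdps had the largest fitted fall (-2.84 ± 0.2) at low levels (4.94 ± 0.654 to 0.689 ± 0.281 CPM), and it has near-identical copies elsewhere in the genome, so its counts are uncertain.

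LXR targets and efflux genes rose in the main, with 9 of 14 higher and 1 lower (median 0.25). The sterol exporters Abca1 and Abcg1 both rose. Abca1 (ENSMUSG00000015243, chromosome 4, 53030787 to 53159895, minus strand) went from 387, 397, 404 and 333 to 758, 822, 812 and 786 CPM (2.09-fold, 1.06 ± 0.12, adjusted p = 1.32e-08), and Abcg1 (ENSMUSG00000024030, chromosome 17, 31276649 to 31336962, plus strand) from 213, 209.8, 203 and 207 to 370.1, 381, 401 and 399 CPM (1.86-fold, 0.9 ± 0.05). Ch25h, which makes 25-hydroxycholesterol, rose from 11 ± 0.603 to 35.5 ± 4.65 CPM (1.69 ± 0.1). Mylip, a ubiquitin ligase induced by LXR, rose from 35.6 ± 1.47 to 77.8 ± 4.08 CPM (1.13 ± 0.11) and Nr1h3, the gene of LXRα, from 46.4 ± 2.26 to 85.1 ± 3.21 CPM (0.88 ± 0.07). Smpdl3a was the member that fell (-0.31 ± 0.06). Apoe (625 ± 30.5 to 577 ± 32 CPM) and Lpl (5260 ± 35 to 5220 ± 172 CPM) did not pass.

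Of 18 genes of sterol esterification and intracellular transport, 11 rose and 2 fell (median 0.23). Gramd1b, which carries cholesterol from the plasma membrane to the endoplasmic reticulum, went from 33.01, 32.3, 32.02 and 32.4 to 90.7, 85.6, 90.7 and 92.1 CPM (2.77-fold, 1.47 ± 0.08, adjusted p = 3.52e-17). Npc1, which exports cholesterol from lysosomes, rose from 63.6 ± 3.01 to 104 ± 3.24 CPM (0.71 ± 0.06), and Soat1, which esterifies it, from 66.6 ± 2.87 to 90.5 ± 2.46 CPM (0.44 ± 0.05). Cavin2, of the caveolar coat, rose from 303 ± 11.3 to 474 ± 21.1 CPM (0.65 ± 0.05) and the sterol carrier gene Stard5 from 28.5 ± 2.3 to 43.5 ± 1.92 CPM (0.61 ± 0.06). Nceh1, a cholesterol ester hydrolase, and Osbpl1a fell (-0.35 ± 0.09 and -0.27 ± 0.05).

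The integrated stress response was up nearly as a whole, with 20 of 22 genes higher, 14 of them over 2-fold, and 1 lower (median 1.24). Slc7a11 (ENSMUSG00000027737, chromosome 3, 49846975 to 50398063, minus strand), the cystine importer named above, went from 21.6, 22.2, 20.6 and 18.5 to 179, 181, 200 and 175 CPM (8.9-fold, 3.15 ± 0.11, adjusted p = 1.24e-19). Slc7a5, an importer of large neutral amino acids, rose from 48.1 ± 2.82 to 160 ± 10.8 CPM (1.73 ± 0.09), its partner Slc3a2 from 128 ± 4.17 to 555 ± 36.5 CPM (2.12 ± 0.14), Psat1, of serine synthesis, from 70.1 ± 5.46 to 155 ± 7.03 CPM (1.14 ± 0.06), and Asns, asparagine synthetase, from 87.5 ± 3.04 to 165 ± 8.54 CPM (0.92 ± 0.05). Ddit3 (ENSMUSG00000025408, chromosome 10, 127126643 to 127132157, plus strand), the gene of the pro-apoptotic factor CHOP, went from 25.7, 27.8, 27.1 and 30.4 to 157, 139, 133 and 147 CPM (5.18-fold, 2.37 ± 0.18). Fgf21, a secreted metabolic hormone, rose from 0.729 ± 0.132 to 6.88 ± 1.49 CPM (3.21 ± 0.29), Ppp1r15a, which reverses eIF2α phosphorylation, from 31.4 ± 1.43 to 199 ± 13.6 CPM (2.67 ± 0.21), and Atf4 from 175 ± 4.56 to 423 ± 33.4 CPM (1.27 ± 0.14). Ddit4, an inhibitor of mTORC1, was the member that fell (186 ± 11.3 to 127 ± 15.6 CPM, -0.56 ± 0.12), and Atf5 did not pass (0.06 ± 0.06, adjusted p = 0.337).

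Chaperones of the endoplasmic reticulum moved both ways, with 10 of 17 higher and 5 lower (median 0.41), the latter near the share over all genes. Hspa5 (ENSMUSG00000026864, chromosome 2, 34661982 to 34667559, plus strand), the gene of the master chaperone BiP, went from 1067, 1116, 1026 and 1029 to 2829, 2602, 2650 and 2848 CPM (2.58-fold, 1.37 ± 0.05, adjusted p = 1.46e-22). Dnajb9, a BiP cochaperone, rose from 92.1 ± 5.11 to 282 ± 15.7 CPM (1.62 ± 0.07), Herpud1, of protein degradation from the reticulum, from 54.3 ± 2.57 to 133 ± 6.04 CPM (1.29 ± 0.08), and the secreted factor Manf from 68.6 ± 2.1 to 122 ± 2.42 CPM (0.83 ± 0.06). The 5 that fell were the disulfide isomerases Pdia4 (-0.24 ± 0.04), P4hb (-0.23 ± 0.03) and Pdia3 (-0.17 ± 0.04), with Calr (-0.14 ± 0.04), calreticulin, and the cochaperone Dnajb11 (-0.11 ± 0.04).

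All 16 heat shock genes rose, 9 of them over 2-fold, with a median of 1.10. Beside Hspa1a and Hspa1b, Hsph1, an HSP110 chaperone, went from 67.1, 68.9, 63 and 67.4 to 333, 299, 304 and 336 CPM (2.26 ± 0.12, adjusted p = 1.11e-15), and Hspb1, the small heat shock protein HSP27, rose from 57.3 ± 1.45 to 274 ± 17 CPM (2.26 ± 0.16). Hsp90aa1, the inducible cytosolic HSP90, rose from 412 ± 13.9 to 1340 ± 122 CPM (1.7 ± 0.09), against 0.32 ± 0.05 for the constitutive Hsp90ab1. Hspe1 and Hspd1, the mitochondrial chaperonin pair, rose by 0.85 ± 0.1 and 0.74 ± 0.05, and Hsf1, the transcription factor of the heat shock response, by 0.32 ± 0.06.

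Proteasome subunits, the known targets of NFE2L1, showed no common direction. Of 33 tested, 8 rose and 3 fell, both below the shares over all genes, and the median was -0.01. Psmd8 rose from 153, 154, 157 and 163 to 255, 229.6, 249.7 and 255 CPM (0.66 ± 0.07, adjusted p = 1.05e-10), Psma1 from 179 ± 5.76 to 236 ± 10.4 CPM (0.4 ± 0.05) and Psmd11 by 0.27 ± 0.04. Psmc3, an ATPase of the base, fell from 108 ± 3.26 to 91.1 ± 3.27 CPM (-0.25 ± 0.05). The catalytic subunit gene Psmb5 stood at 109.6, 102, 105 and 110.1 CPM in control and 118, 107, 114 and 111 CPM in cholesterol (0.08 ± 0.06, adjusted p = 0.293), and the groups overlapped. Psmd1 (-0.08 ± 0.04, adjusted p = 0.0749) did not pass here but was called lower in 4 of 15 alternatives. Among these was scaling by library totals alone, at -0.16. Under that scaling 11 members were lower and the median was -0.08.

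Cytokines and NF-κB targets rose in 24 of 29 tested, 21 of them over 2-fold, and fell in 2 (median 1.48), while Ccl20 and Il1b were too low to be tested. Tnfaip3, the feedback inhibitor A20, went from 16.99, 16.7, 15.9 and 16.5 to 98.5, 94.8, 126 and 103 CPM (6.39-fold, 2.68 ± 0.09, adjusted p = 9.05e-22). Tnfaip2 rose from 171 ± 3.6 to 388 ± 32.9 CPM (1.18 ± 0.05) and Birc3, an inhibitor of apoptosis, from 17.5 ± 0.599 to 40.2 ± 3.57 CPM (1.2 ± 0.06). Ccl2, a chemokine for monocytes, went from 43.5, 48.5, 37.2 and 43.9 to 123, 125, 183 and 129 CPM (3.23-fold, 1.69 ± 0.2), with cholesterol library 3 above the other 3. Il6 went from 6.28, 5.79, 4.99 and 5.997 to 21.6, 21.2, 33.9 and 16.2 CPM (2.01 ± 0.22) and Lif, of the same cytokine family, from 8.41 ± 0.193 to 36.6 ± 9.38 CPM (2.12 ± 0.13). Csf3, the granulocyte growth factor gene, was nearly absent in control (0, 0, 0 and 0.0837 CPM) and stood at 4.01, 2.96, 10.5 and 2.81 CPM in cholesterol, and no fold is given against counts so low. The members that fell were Il1rn, the interleukin 1 receptor antagonist (44.6 ± 1.42 to 20.6 ± 1.88 CPM, -1.11 ± 0.1), and the adhesion molecule Vcam1 (52.8 ± 2.8 to 30 ± 0.561 CPM, -0.81 ± 0.1).

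Interferon response genes went the other way, with 12 of 23 lower and 3 higher (median -0.41). Irf7, the regulator of type I interferon genes, went from 314, 322, 321 and 359 to 205, 189, 224 and 207 CPM (-0.67 ± 0.07, adjusted p = 1.16e-10), and Oas1a, a sensor of double-stranded RNA, fell from 51.2 ± 4.28 to 32.4 ± 2.74 CPM (-0.66 ± 0.08). Irf1, which also answers NF-κB, rose from 46.6 ± 3.11 to 108 ± 7.65 CPM (1.21 ± 0.09). The other 2 that rose were Gbp2 (0.35 ± 0.06) and Rsad2 (0.52 ± 0.18).

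Antioxidant targets of NFE2L2, the relative of NFE2L1 that answers oxidants, rose in 15 of 21 and fell in 1 (median 0.45). Txnrd1, thioredoxin reductase, went from 278, 284, 267 and 262 to 847, 799.9, 839 and 846 CPM (3.05-fold, 1.61 ± 0.05, adjusted p = 1.29e-25), and Srxn1, sulfiredoxin, from 228 ± 6.87 to 786 ± 32.1 CPM (1.78 ± 0.06). Hmox1 (ENSMUSG00000005413, chromosome 8, 75820249 to 75827217, plus strand), heme oxygenase 1, went from 733, 733, 656 and 727 to 4339, 3657, 3994 and 4027 CPM (5.62-fold, 2.49 ± 0.09). Gclc, of glutathione synthesis, rose from 86.8 ± 4.05 to 198 ± 5.94 CPM (1.19 ± 0.06), and Nqo1, a quinone reductase, by a smaller 0.45 ± 0.07. G6pdx, of the pentose phosphate pathway, was the member that fell (-0.16 ± 0.04). Of 6 genes of metallothioneins and zinc handling 5 rose (median 0.86). Mt1, which binds zinc and copper, went from 293, 251, 256 and 312 to 619, 649, 741 and 661 CPM (1.27 ± 0.11) and the zinc exporter gene Slc30a1 from 24 ± 1.65 to 49.5 ± 1.69 CPM (1.04 ± 0.1).

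Immediate early genes rose in 20 of 23, 17 of them over 2-fold, and fell in 2 (median 1.64). Fosl1, of the AP-1 family, went from 11.3, 11.7, 9.21 and 10.1 to 52.4, 46.8, 54.6 and 51.4 CPM (2.28 ± 0.13, adjusted p = 1.38e-14), Klf6, a zinc finger factor, from 121 ± 6.12 to 391 ± 17.8 CPM (1.7 ± 0.1), and Dusp6, a phosphatase that ends ERK signalling, from 31.8 ± 1.49 to 67.1 ± 4.21 CPM (1.08 ± 0.06). Jun rose by 1.64 ± 0.2, Fos by 2.02 ± 0.18 and Myc by 1.28 ± 0.14. Fosl2 (-0.31 ± 0.07) and Egr3 (-0.28 ± 0.1) fell. The p53 and cell death list was mixed, with 9 of 17 higher and 4 lower (median 0.25), the latter below the share over all genes. Mdm2, the ubiquitin ligase of p53, rose from 96.1 ± 2.55 to 224 ± 14.9 CPM (1.22 ± 0.09), Tnfrsf10b, the TRAIL receptor, from 21.7 ± 1.21 to 37.8 ± 1.41 CPM (0.8 ± 0.06) and Mcl1, which counters apoptosis, by 0.47 ± 0.04, while Sesn1, a sestrin, fell from 22.5 ± 1 to 10.7 ± 0.432 CPM (-1.08 ± 0.07).

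Among 17 clock genes 12 rose and 2 fell (median 0.66). Cry1, a repressor of the clock, went from 20.3, 19.9, 18.2 and 16.8 to 51.4, 48.02, 50.6 and 47.6 CPM (1.4 ± 0.07, adjusted p = 3.2e-19), and Per2, its partner, from 5.43, 6.57, 6.68 and 7.14 to 18.5, 18.9, 18.4 and 16.1 CPM (1.47 ± 0.13). Rora, a nuclear receptor that activates Arntl, rose from 35.4 ± 2.74 to 79 ± 4.66 CPM (1.16 ± 0.09), and Ciart, another repressor, from 3.05 ± 0.372 to 9.93 ± 0.517 CPM (1.71 ± 0.15). Of 19 lysosome and autophagy genes 8 rose and 2 fell (median 0.08). Sqstm1, the autophagy receptor p62, went from 685, 681, 656 and 667 to 2542, 2302, 2665 and 2571 CPM (1.91 ± 0.1), and Atp6v1h, of the lysosomal proton pump, rose from 87.5 ± 4.52 to 182 ± 10.1 CPM (1.06 ± 0.07), while Wipi1, of autophagosome formation, fell from 110 ± 4.3 to 62.4 ± 2.11 CPM (-0.81 ± 0.04). Lamp1 (0.08 ± 0.04), Ctsd (0.02 ± 0.05) and Map1lc3b (-0.01 ± 0.05) did not pass.

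Genes of fat storage were for the most part higher. Of 16 lipid droplet and lipolysis genes 13 rose and 1 fell (median 0.44), and of 21 adipocyte markers 14 rose and 2 fell (median 0.27). Cidec, which fuses lipid droplets, went from 250, 258, 233 and 251 to 512, 477, 512 and 507 CPM (2.02-fold, 1.02 ± 0.06, adjusted p = 4.39e-16). Plin2, a droplet coat protein, rose from 1350 ± 65.6 to 3340 ± 334 CPM (1.31 ± 0.12), Agpat2, of triglyceride synthesis, from 518 ± 28.6 to 910 ± 40.8 CPM (0.81 ± 0.06), and Dgat1, its last enzyme, from 94.5 ± 5 to 152 ± 4.82 CPM (0.68 ± 0.06). Slc2a4, the insulin-responsive glucose transporter GLUT4, rose from 128 ± 6.46 to 205 ± 3.72 CPM (0.67 ± 0.05) and Acsl1, which activates fatty acids, from 811 ± 33.2 to 1500 ± 56 CPM (0.89 ± 0.08). Adiponectin mRNA, Adipoq, stood at 793, 814, 804 and 858 CPM in control and 919, 874, 835 and 909 CPM in cholesterol (0.11 ± 0.04, adjusted p = 0.0259), a call that was lost in 5 of 15 alternatives. Leptin, Lep, fell from 10.2 ± 2.1 to 4.38 ± 0.988 CPM (-1.21 ± 0.24), as did Adrb3, the adipocyte β-adrenergic receptor (-0.27 ± 0.07).

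Fatty acid synthesis genes split, with 6 of 13 higher and 4 lower (median 0.08), the latter near the share over all genes. Fasn, fatty acid synthase, went from 3431, 3090, 3704 and 3672 to 1085, 1206, 1182 and 1038 CPM, 3.08-fold lower (-1.62 ± 0.11, adjusted p = 1.59e-12), and the elongase Elovl6 fell from 79.8 ± 2.9 to 51 ± 4.09 CPM (-0.65 ± 0.06). The desaturase Scd1 went from 20820, 20650, 20470 and 20060 to 28650, 26690, 26270 and 28420 CPM (0.42 ± 0.05), Me1, malic enzyme, rose from 958 ± 30.5 to 1270 ± 69.8 CPM (0.41 ± 0.05) and Srebf1, whose product activates these genes, from 574 ± 22.3 to 793 ± 66.7 CPM (0.47 ± 0.12). In 12 thermogenic genes 10 rose and 2 fell (median 0.57) at low levels, with Ucp1, the uncoupling protein, at 4.201, 4.85, 3.801 and 4.91 CPM in control and 10.5, 8.86, 10.2 and 9.66 CPM in cholesterol (1.13 ± 0.15), Ppara rising by 1.18 ± 0.14 and Prdm16, a determinant of brown fat, falling by 1.63-fold. Of 17 glycolysis genes 13 rose and 0 fell (median 0.21). Slc2a1, the glucose transporter GLUT1, rose from 177 ± 6.96 to 806 ± 78.8 CPM (2.19 ± 0.19), Hk2, hexokinase 2, from 131 ± 7.15 to 398 ± 22.8 CPM (1.6 ± 0.12) and Hk1 by 0.54 ± 0.06. Gapdh is among the 13 but is not reliable here, since it stood at 251, 15.6, 15.5 and 19.1 CPM in control and 458, 309, 371 and 425 CPM in cholesterol and has many processed copies in the genome. Of 15 insulin signalling genes 8 rose and 4 fell (median 0.18), and the share that fell was near that over all genes. Pde3b, a phosphodiesterase that degrades cAMP when insulin signals, rose from 380 ± 22.4 to 629 ± 39.9 CPM (0.73 ± 0.07), while Igf1 fell by 1.35-fold.

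Markers of other cell types and genes of the matrix fell together. Bulk RNA does not tell which cells of the cultures, adipocytes included, made these transcripts. All 14 tested fibroblast and precursor markers were lower, 10 of them over 2-fold (median -1.17), and their summed level was 25600 to 26900 CPM in control and 8160 to 9090 CPM in cholesterol. Dpp4 was too low to be tested. Col3a1 (ENSMUSG00000026043, chromosome 1, 45350698 to 45388866, plus strand), a fibrillar collagen, went from 3748, 3518, 3682 and 3522 to 548, 616, 638 and 582 CPM, 6.07-fold lower (-2.6 ± 0.06, adjusted p = 1.04e-27). Col1a2 went from 5655, 5449, 5378 and 5368 to 1431, 1527, 1603 and 1547 CPM (-1.84 ± 0.04), Col1a1 from 8670 ± 244 to 2260 ± 214 CPM (-1.94 ± 0.06), and Pdgfrb, a growth factor receptor of mesenchymal cells, from 246 ± 6.49 to 91.4 ± 3.22 CPM (-1.43 ± 0.07). Of 20 collagen and matrix genes 16 fell and 3 rose (median -0.76). Eln, elastin, fell from 29 ± 0.904 to 5.73 ± 0.714 CPM (-2.34 ± 0.09), Col5a1 from 2120 ± 57 to 861 ± 75.4 CPM (-1.3 ± 0.05) and Loxl1, which crosslinks elastin, by 2.22-fold, while the basement membrane collagens Col4a1 (-0.18 ± 0.04) and Col4a2 (-0.29 ± 0.05) fell less. Among those that rose were the protease genes Adamts1 (0.7 ± 0.09) and Mmp3 (0.55 ± 0.12).

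All 14 macrophage markers were lower as well, 9 over 2-fold (median -1.17), and their sum was 508 to 558 CPM in control against 232 to 258 CPM in cholesterol. Adgre1, the gene of F4/80, went from 18.4, 19.2, 19.04 and 19.8 to 6.41, 6.54, 6.47 and 6.88 CPM (-1.54 ± 0.11, adjusted p = 1.79e-14). The complement genes C1qa (-1.53 ± 0.11) and C1qc (-1.32 ± 0.09) fell, as did Csf1r, the receptor for CSF1 (-1.48 ± 0.11). Of 12 endothelial markers 10 fell and 1 rose (median -0.72), with sums of 725 to 750 CPM in control and 434 to 508 CPM in cholesterol. Kdr, the VEGF receptor, fell from 168 ± 4.41 to 47.4 ± 4.92 CPM (-1.82 ± 0.14) and Tie1 from 39.2 ± 1.93 to 19.4 ± 1.28 CPM (-1.01 ± 0.06), while Cldn5, a tight junction claudin, rose from 12.8, 13.3, 13.5 and 15.9 to 57.2, 64.8, 67.7 and 67.2 CPM (2.2 ± 0.12). Of 11 smooth muscle and pericyte markers 7 fell and 2 rose (median -0.97), with sums of 741 to 802 CPM in control and 362 to 392 CPM in cholesterol. Acta2, smooth muscle actin, fell from 409 ± 22.4 to 104 ± 9.09 CPM (-1.98 ± 0.11), while Cspg4, of pericytes and precursors, rose from 46.6 ± 2.4 to 95.8 ± 9.88 CPM (1.04 ± 0.08). Of 13 proliferation genes 9 fell and 2 rose (median -0.84). Top2a, a topoisomerase of dividing cells, fell from 27.2 ± 1.03 to 8.19 ± 0.808 CPM (-1.73 ± 0.09), and Mki67 from 23.8 ± 1.51 to 9.1 ± 0.727 CPM (-1.39 ± 0.11). These sums moved beside the stress, sterol and adipocyte lists above, and their part in those results was not tested. Of 13 mitochondrially encoded mRNAs, 2 rose, mt-Co1 (0.17 ± 0.06) and mt-Nd1 (0.29 ± 0.11), and 0 fell (median 0.12), and with scaling by library totals alone 0 of them were called higher.

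**Figure D2:**
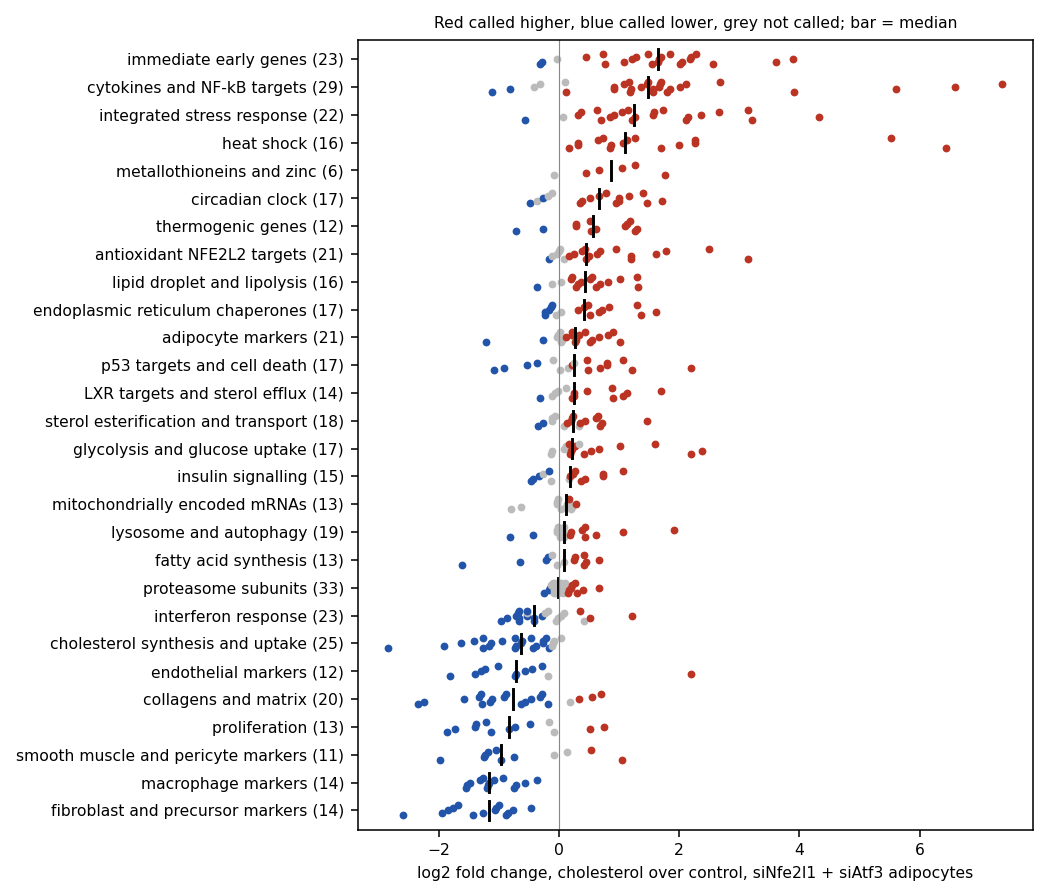
Log2 fold change (cholesterol over control, double-silenced adipocytes) of each tested member of 28 gene lists; red points were called higher, blue lower, grey not called, the bar is the list's median and the number in brackets the members tested. Immediate early genes (median 1.64), cytokines (1.48) and the integrated stress response (1.24) lie farthest to the right, and macrophage and fibroblast markers (both -1.17) farthest to the left.

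Whether the double-silenced cells answered cholesterol as scramble cells did was tested as the difference of the 2 responses, over 4 separate groups of 4 libraries. It differed for 2331 genes, 13.7% of those tested, with 1107 differences positive (6.52%) and 1224 negative (7.21%). With scaling by library totals alone the split was 1474 to 982, so that 60% were positive in place of 47.5%. The commonest pattern was a smaller response in the double-silenced cells. Among the called genes, 787 had a smaller rise and 691 a smaller fall than in scramble cells, 138 a larger rise and 204 a larger fall. In the other 233 and 278 the fitted responses had opposite signs, with the scramble response positive and negative in turn. Without double-silenced cholesterol library 2, 810 differences were negative. Over the 3271 genes whose scramble response exceeded 2-fold, the median ratio of the double-silenced to the scramble log2 response was 0.751. The same genes had a median ratio of 0.99 to the siAtf3 response and 0.913 to the siNfe2l1 response. These genes were chosen on their scramble response. Over the 2401 genes chosen instead on a called response over 2-fold in double-silenced cells, the ratio to scramble was 0.954. This and the differences below share the double-silenced libraries, so they are not independent of each other.

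**Figure D3:**
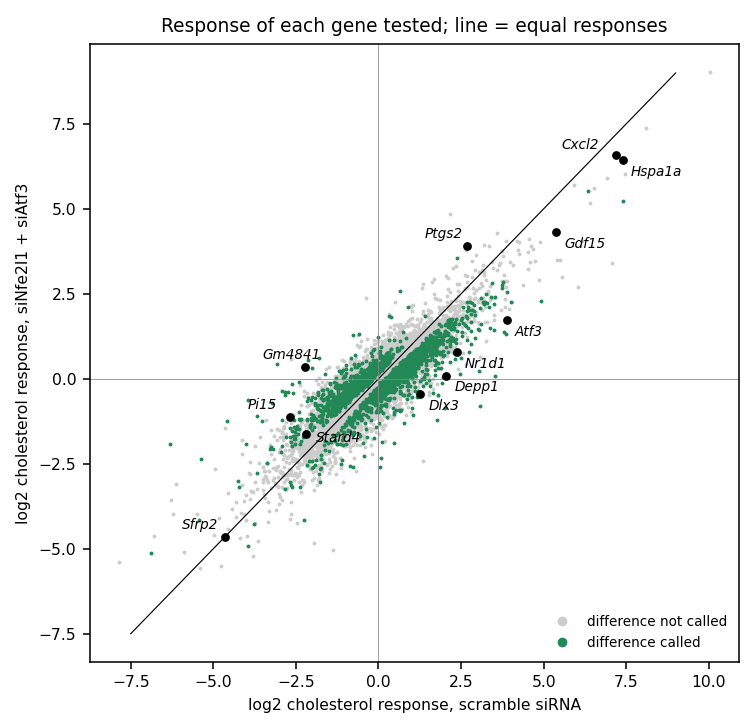
Log2 response to cholesterol of each of 16984 genes with scramble siRNA (x axis) and with siNfe2l1+siAtf3 (y axis); the line marks equal responses and green points are the 2331 genes whose responses differed. Most green points lie nearer to 0 on the y axis than on the x axis, Atf3 and Gdf15 lie below the line among the rises, and Ptgs2 lies above it.

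The smaller rises included Atf3 itself. Its log2 response was 1.72 ± 0.29 with both siRNAs and 3.89 ± 0.29 with scramble (difference -2.16 ± 0.4, adjusted p = 0.0012). Depp1, a FOXO target that favours autophagy, stood at 28.6, 26.4, 25.6 and 31.9 CPM in control and 35.9, 26.7, 28.9 and 28.3 CPM in cholesterol with both siRNAs, where the groups overlapped. With scramble it went from 20.2, 22.2, 19.2 and 16.2 to 116, 59.7, 99.96 and 50.9 CPM (difference -1.98 ± 0.52, adjusted p = 0.0131). Nr1d1, the clock repressor REV-ERBα, went from 43.6, 39.3, 37.7 and 38.1 to 72.4, 62.2, 66.6 and 73.8 CPM with both siRNAs and from 34.8, 32.1, 39.3 and 42.1 to 252, 159.7, 218 and 145 CPM with scramble (-1.59 ± 0.34). Arl4c, a small GTPase that LXR activates, rose by 1.02 ± 0.25 against 2.8 ± 0.25 (-1.78 ± 0.35). The homeobox gene Dlx3 (-0.45 against 1.27, difference -1.72 ± 0.28) and 1700020L24Rik (0.11 against 1.7, difference -1.59 ± 0.26), a gene without an assigned role, had no called response with both siRNAs.

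The 6 highest positive differences were those of Gm4841, Irgm2, Pi15, Tlr3, Mx1 and Irgm1, most of them genes known to be induced by interferon, and their fitted scramble responses were all falls. With both siRNAs the falls of Pi15 and Tlr3 passed the test and the responses of the other 4 did not. Irgm2, a GTPase that interferon induces, stood at 183, 181, 158 and 186 CPM in control and 104, 124, 135 and 116 CPM in cholesterol with both siRNAs, and at 159, 161, 152 and 167 and 23, 44.7, 29.9 and 48.98 CPM with scramble (difference 1.56 ± 0.36, adjusted p = 0.00553). These groups did not overlap with either siRNA, and the fitted response with both was -0.56 ± 0.25 (adjusted p = 0.0529). Irgm1, of the same family, had a difference of 1.44 ± 0.32, the RNA sensor gene Tlr3 of 1.5 ± 0.3 and the antiviral gene Mx1 of 1.48 ± 0.49 (adjusted p = 0.0438), a call lost in 12 of 23 alternatives. Gm4841 had the largest, 2.56 ± 0.56, with 11.4 to 15.4 CPM in control and 14.9 to 17.3 CPM in cholesterol, and as a member of a family of near-identical genes it is uncertain. Pi15, a secreted protease inhibitor, fell by 2.19-fold with both siRNAs, from 16.1 ± 2.36 to 7.35 ± 1.28 CPM, against a log2 response of -2.67 ± 0.18 with scramble (difference 1.54 ± 0.25). Over the whole interferon list the differences were 4 positive and 5 negative of 23 (median 0.05), and from 2 to 9 were positive and 1 to 5 negative over the alternatives, with 1 negative without scramble cholesterol library 1. The scramble cholesterol libraries were themselves uneven here, with libraries 1 and 3 above 2 and 4 for Depp1 and Nr1d1 and below them for Irgm2.

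Of 16 heat shock genes 12 had a negative difference and 0 a positive one (median -0.36), against 7.21% and 6.52% of all genes. Hspb1 differed by -0.99 ± 0.21, Bag3, a cochaperone of HSP70, by -0.75 ± 0.16 and Dnajb1 by -0.89 ± 0.23. Without scramble cholesterol library 1, 5 of the 16 were called. Of 23 immediate early genes 11 had a negative and 2 a positive difference (median -0.43). Nr4a3, a nuclear receptor, differed by -1.53 ± 0.29 and Dusp1, a phosphatase of stress kinases, by -1.33 ± 0.31, while Egr3 differed by 0.66 ± 0.15. Without scramble cholesterol library 3, 5 of the negative differences were called. Of 22 integrated stress response genes 8 had a negative and 1 a positive difference (median -0.40), and with no filter on low counts 4 were negative. Ppp1r15a differed by -1.08 ± 0.29 and Gdf15 by -1.07 ± 0.33 (adjusted p = 0.0317), while Phgdh, of serine synthesis, was the positive one (0.36 ± 0.12). Per1 (-1.24 ± 0.27), Irs2, an insulin receptor substrate (-1.13 ± 0.24), Gadd45a (-1.3 ± 0.36) and Ppargc1a, a coactivator of mitochondrial genes (-1.28 ± 0.29), also rose less than with scramble. Hspa1a (-0.96 ± 0.31, adjusted p = 0.0428) and Ddit3 (-0.75 ± 0.25, adjusted p = 0.0493) were near the threshold, and their calls were lost in 13 and 15 of 23 alternatives, as was that of Gdf15 in 10.

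Some responses were larger or their repression weaker. Chaperones of the endoplasmic reticulum had 8 positive (6 to 12 over the alternatives) and 1 negative difference of 17 (median 0.18), among them Sdf2l1 (0.55 ± 0.11), Creld2 (0.48 ± 0.09) and Dnajc3 (0.45 ± 0.08), while the negative one was Dnajb9 (-0.44 ± 0.1). Ptgs2 had a log2 response of 3.91 ± 0.13 against 2.69 ± 0.12 with scramble (1.22 ± 0.17, adjusted p = 7.41e-05), where it went from 21.6, 21.8, 22.4 and 25.8 to 145, 145, 156 and 145 CPM. Its control level was lower and its cholesterol level higher with both siRNAs, without overlap. Lif (1.23 ± 0.18) and Ereg (1.16 ± 0.18) also rose more. The cytokine and NF-κB list that holds Ptgs2 and Lif had 2 positive and 5 negative differences of 29 (median -0.18), with 1 to 7 negative over the alternatives. Stard4 went from 51.9, 54.6, 53.1 and 55.6 to 11.4, 11.2, 13.2 and 11.5 CPM with scramble and from 51.9, 50.2, 53.2 and 51.5 to 16.6, 18.2, 16.6 and 15.5 CPM with both siRNAs, a smaller fall (0.56 ± 0.1, adjusted p = 0.000449). Its cholesterol libraries did not overlap between the siRNAs. Hmgcs1 fell less as well (0.51 ± 0.08), whereas Sqle (0.04 ± 0.07, adjusted p = 0.789) and the list as a whole (4 positive and 2 negative of 25, median -0.01) did not share this. Among the matrix genes Col3a1 fell further than in scramble cells (-0.63 ± 0.08), as did Pdgfrb (-0.67 ± 0.09), and 6 of 14 fibroblast markers (4 to 8 over the alternatives) and 5 of 14 macrophage markers (3 to 7, with 3 without double-silenced control library 4) had negative differences, against 7.21% of all genes. Their part in the other differences was not tested.

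**Figure D4:**
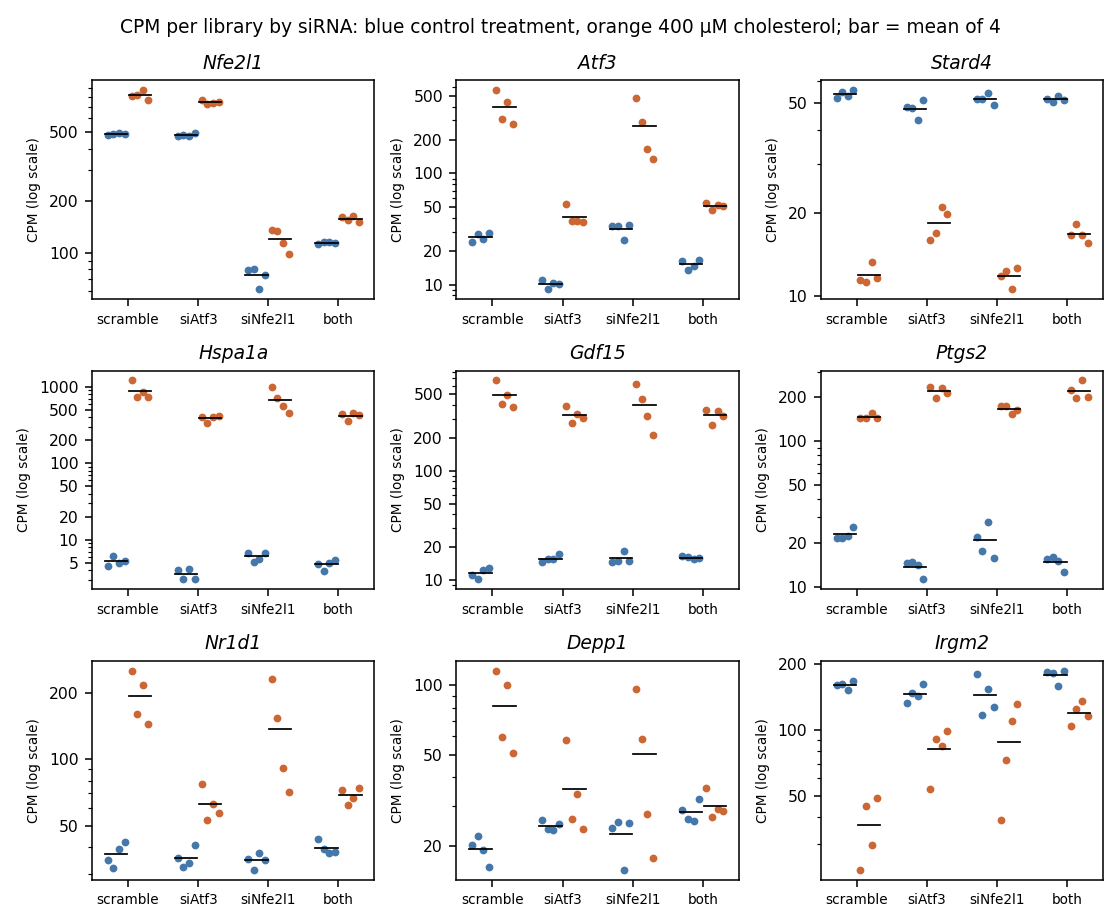
CPM per library (log axis) of 9 genes by siRNA, where "both" is siNfe2l1+siAtf3; blue points are control and orange points cholesterol libraries, and bars are means of 4. In cholesterol, Hspa1a and Nr1d1 lie lower, and Stard4, Ptgs2 and Irgm2 higher, with both siRNAs than with scramble, and the 4 libraries with siNfe2l1 and cholesterol are spread widely for Atf3, Nr1d1, Depp1 and Irgm2.

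The difference from the response of cells with siAtf3 alone asks whether siNfe2l1 adds to it. At an adjusted p of 0.05 edgeR called 0 of 16984 genes (0%), with 666 genes (3.92%) at an unadjusted p under 0.05 and a smallest adjusted p of 0.696. DESeq2 and limma-voom also called 0. A share of 0.05 would be expected at that unadjusted level with no difference at all. With the 4 compared groups fitted alone by edgeR, 1065 genes were under it, so the result depends on the shared spread. The 0 calls do not show that the responses were alike. The 95% interval of the difference had a median half-width of 0.27 log2 units and lay within a 2-fold difference in either direction for 13465 genes (79.3%). For Atf3 the difference was -0.29 ± 0.42 with an interval of -1.15 to 0.58, for Hspa1a -0.33 ± 0.32 (-1 to 0.34), for Sqle 0.12 ± 0.07 (-0.03 to 0.27), for Abca1 0.04 ± 0.17 (-0.3 to 0.38) and for Psmb5 -0.06 ± 0.09 (-0.24 to 0.12). The interval of Insig1, -0.67 ± 0.16 (-1 to -0.34), left out 0, and in a fit on the 4 groups alone Insig1 was called (-0.67, adjusted p = 8.12e-08) together with Pdcd4 (-0.39), Cxcl9 (0.43) and Vcam1 (0.44). Il1rn was called with the replicate number as a block (0.67) and without siAtf3 cholesterol library 1 (0.79). These 5 genes, named after their values had been seen, are all that the alternatives run called.

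The difference from the response with siNfe2l1 alone asks what siAtf3 adds. It was called for 458 genes (2.7%), of which 122 were positive (0.718%) and 336 negative (1.98%). Nfe2l1 itself was lowered less with both siRNAs than with siNfe2l1 alone. It stood at 112 to 116 against 61.5 to 80.2 CPM in control and at 151 to 163 against 97.9 to 135 CPM in cholesterol. An effect of siAtf3 and one of the weaker Nfe2l1 silencing therefore cannot be told apart in this difference. The siNfe2l1 cholesterol libraries were uneven and lay between 24 and 40.5 on the first component. Without library 4 of that group 448 differences were positive and 539 negative, and without library 3 of it 208 were positive. Leaving out 1 of 12 other libraries brought the negative count to between 154 and 220. These were libraries 2, 3 and 4 of the siNfe2l1 control group, 1 and 2 of the siNfe2l1 cholesterol group, all 4 of the double-silenced control group, and 1, 2 and 4 of the double-silenced cholesterol group. With the 4 groups fitted alone, 133 were negative. Dlx3 had the lowest difference (-1.62 ± 0.28, adjusted p = 0.00111), with a log2 response of -0.45 with both siRNAs and 1.17 ± 0.19 with siNfe2l1. Pck1, an enzyme of glyceroneogenesis, stood at 18.3, 21.2, 17.4 and 17.1 CPM in control and 18.99, 17.3, 17.5 and 18.4 CPM in cholesterol with both siRNAs. With siNfe2l1 it went from 7.09, 4.68, 7.65 and 6.19 to 14.7, 16.6, 14.9 and 11.1 CPM (difference -1.2 ± 0.19, adjusted p = 0.000325). Disp2 (-0.58 with both siRNAs, 0.75 with siNfe2l1) differed by -1.32 ± 0.2, the imprinted zinc finger gene Zim1 by -1.33 ± 0.3, 1700020L24Rik by -1.15 ± 0.27 and the chemokine gene Cxcl10 by -1.27 ± 0.3 (adjusted p = 0.0211), a call lost in 5 of 23 alternatives.

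The highest difference from siNfe2l1 was that of Acta1, skeletal muscle actin. It went from 4.42, 4.26, 4.38 and 5.75 to 45.8, 28.9, 42.2 and 31.2 CPM with both siRNAs and from 27.8, 35.8, 42.2 and 39.8 to 99.9, 80.9, 64.05 and 54.7 CPM with siNfe2l1 (1.92 ± 0.32, adjusted p = 0.00111), so that its larger response started from a lower control level. Ldb3, of the muscle Z-disc, differed by 1.1 ± 0.14, Smtnl2 by 1.11 ± 0.18, Lurap1l by 1.19 ± 0.13, the small GTPase gene Rasd1 by 1.05 ± 0.2 and Ptgs2 by 0.9 ± 0.17. Stard4 again fell less with both siRNAs (0.5 ± 0.1, adjusted p = 0.00302), while Abcg1 rose less (-0.4 ± 0.08, adjusted p = 0.00177). The smaller rise of Abcg1 started from a higher control level, 203 to 213 against 125 to 150 CPM with siNfe2l1. In cholesterol Abcg1 was still higher with both siRNAs, at 370 to 401 against 319 to 347 CPM. By list, sterol genes had 4 positive and 0 negative differences of 25 (median 0.19), endoplasmic reticulum chaperones 5 and 0 of 17 (0.17, with 3 to 9 positive over the alternatives), fibroblast markers 0 and 5 of 14 (-0.28, with 3 to 7 negative over the alternatives), the cytokine and NF-κB list 1 and 4 of 29 (-0.36, with 1 to 8 negative), macrophage markers 0 and 5 of 14 (-0.55) and endothelial markers 0 and 4 of 12 (-0.39). Col3a1 differed by -0.78 ± 0.08. Atf3 itself did not pass here (-1.35 ± 0.4, adjusted p = 0.0671), with siNfe2l1 cholesterol libraries at 481, 290, 166 and 134 CPM. In this difference 0 heat shock, immediate early and integrated stress response genes were called (edgeR). Under some alternatives up to 3 heat shock and 3 immediate early genes were negative, and up to 1 integrated stress response gene was positive.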

How the data were processed

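Poly(A) RNA of 32 adipocyte libraries was sequenced, and the deposited values are raw counts per gene made by the authors with fastp, HISAT2 2.0.5, the GRCm39 genome and featureCounts 1.5.0-p3, per the submitters' processing notes. Strand and the handling of reads with several alignments are not given in the sources used here. Columns whose names end in C were read as the cholesterol libraries.

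From these counts 16984 of 56748 genes passed edgeR's filterByExpr (minimum count 10, minimum total 15). All 8 groups were fitted together with TMM scaling and the robust quasi-likelihood test (edgeR 4.0.16, R 4.3.3), because 4 libraries a group estimate the spread poorly alone. The groups' spreads were not equal for some genes. The SD of Hspa1a was 235 CPM (mean 684) with siNfe2l1 and cholesterol and 41.2 CPM (mean 420) with both siRNAs and cholesterol. Standard errors of a comparison can therefore be too small or too large. With the compared groups alone, 224 differences from siNfe2l1 were called in place of 458. Called means a Benjamini-Hochberg adjusted p at or below 0.05 over all genes tested. The standard error is the absolute log2 fold change over the square root of F. CPM use TMM-scaled library sizes. Differences of responses are contrasts of 4 groups with no library in common.

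Alternatives were DESeq2 size factors, library totals alone, no filter, DESeq2 1.42.0, limma-voom 3.58.1, the compared groups alone, a replicate block and each library left out. Named were the targeted genes, the 10 highest and 10 lowest called responses among protein-coding genes without overlap of the groups (average log2 CPM 2 or more), the 6 highest and 6 lowest in each difference, up to 4 members of lowest adjusted p in each of 28 lists, and 20 watched genes. Other list members were named after their values were seen, to show members of known role or opposite direction, and a few genes that the rule names are not reported here. The members and lists were chosen with earlier results of these data known. Promoters came from RefSeq tables of GRCm38.p6, which were used for no coordinate of the counts.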

Additional observations from a re-analysis of the deposited data

Results flagged for a closer look

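In 4 of 74 groups of 4 libraries examined, 1 value lay apart from the other 3 by more than the limit of Dixon's test. Chance does this in about 1 group in 20. The total count of a double-silenced control library, 33828418, had a gap ratio of 0.891. Among the cholesterol libraries Ereg at 23.48 CPM had 0.955 and Ccl2 at 183 CPM 0.9, both in library 3, and among the control libraries Hmox1 at 655.9 CPM had 0.916.

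The response to cholesterol differed from that of scramble cells, by the test of the difference itself (edgeR, log2 units). The positive differences were Gm4841 2.56, Irgm2 1.56, Pi15 1.54, Tlr3 1.5, Mx1 1.48 and Irgm1 1.44. The negative ones were Atf3 -2.16, Depp1 -1.98, Arl4c -1.78, Dlx3 -1.72, 1700020L24Rik -1.59, Nr1d1 -1.59, Gdf15 -1.07, Hspa1a -0.96, Hmox1 -0.76, Ddit3 -0.75 and Abcg1 -0.38. For Abcg1 and Hmox1 the control level was higher with both siRNAs (203 to 213 against 113 to 129 CPM, and 656 to 733 against 398 to 491 CPM with scramble). In cholesterol Abcg1 was also higher (370 to 401 against 269 to 315 CPM), and Hmox1 overlapped (3660 to 4340 against 3920 to 4710 CPM).

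Against siNfe2l1 alone the same test passed for Acta1 1.92, Lurap1l 1.19, Smtnl2 1.11, Ldb3 1.1, Rasd1 1.05 and Ptgs2 0.9 on the positive side. On the negative side were Dlx3 -1.62, Zim1 -1.33, Disp2 -1.32, Cxcl10 -1.27, Pck1 -1.2, 1700020L24Rik -1.15 and Abcg1 -0.4.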

How the results depend on the processing

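The numbers of genes called in the response kept within 1.5 times of 5054 and 4910 under every alternative run, and those of the difference from scramble within 1.5 times of 1107 and 1224 with the exception of the negative count without 1 library. With 1 library left out at a time the response gave 4807 to 4953 higher and 4551 to 4734 lower, the difference from scramble 778 to 1371 positive and 810 to 1325 negative, that from siAtf3 0 to 1 positive, and that from siNfe2l1 100 to 448 positive and 154 to 539 negative. The difference from siAtf3 gave 2 positive and 2 negative calls with the compared groups alone. The difference from siNfe2l1 gave 232 positive calls with DESeq2 and 133 negative calls with the compared groups alone. The cause of these shifts was not tested. With the replicate block 5133 genes were higher and 4971 lower in the response, 1272 and 1402 in the difference from scramble, 1 and 0 against siAtf3 and 158 and 425 against siNfe2l1. Same-numbered libraries of the 2 double-silenced groups had correlations of 0.02, -0.05, -0.03 and 0.01, so the numbers were not taken as pairs. No named gene changed sign where it was called in the main fit or in the alternative. Some differences called in neither did change sign, such as that of Abca1 against scramble (0.03, with -0.12 to 0.12 over the alternatives). Against scramble, the call was lost for Nfe2l1 in 15 of 23 alternatives, as given above for Ddit3, Hspa1a, Mx1 and Gdf15, and Insig1 gained one in 4. Against siNfe2l1, Atf3 gained a call in 4, Hmox1 in 6, and Ptgs2 and 1700020L24Rik lost it in 1. Depth limits genes near 1 CPM, such as Csf3 in control.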
